A study of Homo sapiens with 2 samples.

Results

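Translation factors are the proteins that recruit ribosomes to mRNAs and move them along. Here 10 of their genes were examined in a map of RNA contacts of SF3B1: the elongation factor genes EEF1A1, EEF1D, EEF1G and EEF2, the genes EIF4A1, EIF4A2, EIF4B, EIF4G1 and EIF4G2 of the machinery that unwinds the mRNA and bridges it to the ribosome, and PABPC1, a poly(A) binding protein gene. They were taken by name, out of 19987 protein-coding genes of the RefSeq table. A peak belonged to one of them if the deposited list gave it under that gene's NCBI number and its midpoint lay inside the gene's span. By that rule 5 of the 10 genes held an interval, 8 distinct intervals out of 1406 in the list.

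The data are HITS-CLIP peaks: living cells are irradiated with ultraviolet light to fix proteins to the RNA they touch, the protein is pulled down and the attached RNA fragments are sequenced as tags. There was 1 group of 2 biological replicates of the MDA-231-LM2 line, derived from lung metastases of MDA-MB-231 breast cancer cells; the labels give no treatment. The antibody was against SF3B1, whereas the extraction protocol in the labels names SNRBP2. There was no input, control antibody or control sample. Both libraries were pooled before peaks were called, so the depth of a library is unknown, no value below has a replicate error, and no test between conditions could be made. Nor was any transcript level measured.

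SF3B1 is the largest protein of the SF3b complex, which holds the U2 snRNP at the branch point of introns before splicing. Pre-mRNA is therefore its known RNA target in the nucleus. Translation factor genes are among the most strongly transcribed in dividing cells. Several of them also carry small nucleolar RNAs (snoRNAs) inside introns, which are released when the host intron is spliced and cut back. C/D box snoRNAs mostly guide ribose methylation and H/ACA box snoRNAs mostly guide pseudouridylation of other RNAs.

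The 5 genes with an interval were EEF1A1, EIF4A1, EIF4A2, EIF4G1 and PABPC1. Of all protein-coding genes, 1057 held an interval (5.29%). Among the 8712 protein-coding genes whose span lay within the range of the 10 genes, 5283 to 35760 nt, 355 held an interval (4.07%). The 10 genes were named with earlier results of these data in view, so the gap between their count and these shares is a description. EEF1A1, EIF4A1 and EIF4G1 held 2 intervals each, and at least 2 were held by 0.931% of all protein-coding genes (186). Over the summed spans, the 10 genes held 5.45 intervals per 100 kb, against 0.101 per 100 kb over all protein-coding genes. These 2 values cover genes of unlike length, with a median span of 13088.5 nt in the 10 genes and 24140 nt over all protein-coding genes. A density over summed spans also gives the longest genes the most weight, which these medians do not show. No density was computed for the 8712 genes of like span, so the 2 densities are not comparable. Small RNA genes held 37.5% of the intervals of the 10 genes, against 2.45% of those in protein-coding genes. Outside small RNA genes, 4 of the 10 genes held an interval, against 5.2% of all protein-coding genes (1039).

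EEF1D, EEF1G, EEF2, EIF4B and EIF4G2 held 0 intervals. No distinct interval of either strand had its midpoint inside these 5 spans, whichever gene it was listed under. The list holds called peaks, so tags below the authors' threshold in these genes are not seen in it. EEF1D and EEF1G encode subunits of the exchange factor that reloads eEF1A with GTP, and EEF2 encodes the factor that moves the ribosome by a codon. EIF4B encodes a partner that stimulates the eIF4A helicase. EIF4G2 encodes a relative of EIF4G1 that lacks the site for the cap-binding protein. Their spans ran from 9408 nt for EEF2 to 35760 nt for EIF4B, so the longest of the 10 genes was among those with 0 intervals, whereas EEF1A1, the shortest, held 2.

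**Figure D1:**
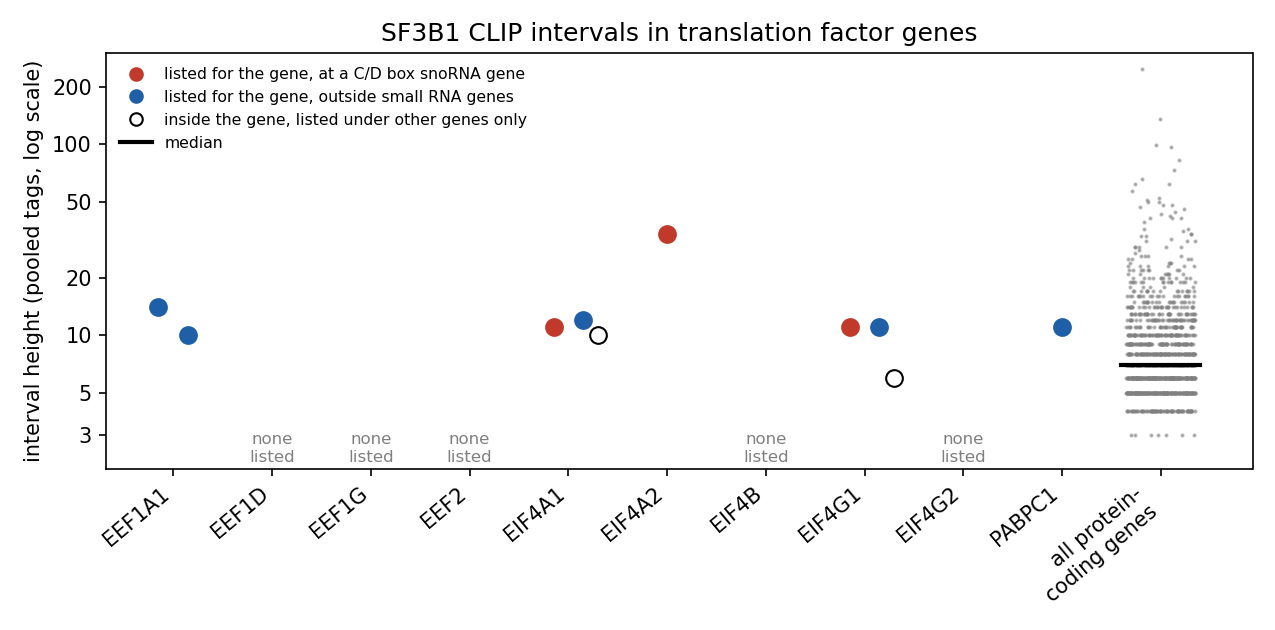
Height of each interval in pooled tags (log scale) for the 10 translation factor genes, with all 1306 intervals in protein-coding genes at the right and their median of 7 as a bar. Filled points are listed for the gene and open circles lie inside it but are listed under other genes; EIF4A2 stands alone at 34 tags and the other filled points lie between 10 and 14.

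What the starts of these genes share was examined because many translation factor mRNAs are known to begin with a terminal oligopyrimidine tract, a C at the first base followed by a run of C or T, through which their translation is tuned to growth signals. RefSeq windows around annotated starts (GRCh38.p14) were found for 8 of the 10 genes. The lines below show the 6 genes with a single window, from 15 bases before the start to 15 bases from it, 5′ to 3′. Capitals mark a run that has C at the start base and then at least 4 bases that are all C or T. The positions are chr6:73521018-73521047 (minus strand) for EEF1A1, chr3:186783562-186783591 (plus) for EIF4A2, chr19:3985449-3985478 (minus) for EEF2, chr12:53006441-53006470 (plus) for EIF4B, chr17:7572810-7572839 (plus) for EIF4A1 and chr11:62573877-62573906 (minus) for EEF1G.
EEF1A1: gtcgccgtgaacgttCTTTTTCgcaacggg
EIF4A2: gttgggcgccgctgtCTTTTCagtcgggcg
EEF2: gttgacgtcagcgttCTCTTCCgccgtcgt
EIF4B: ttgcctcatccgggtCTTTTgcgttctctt
EIF4A1: aggcgggcactccgccctagtttctaagga
EEF1G: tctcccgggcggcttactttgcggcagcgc

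The run was present in EEF1A1, EIF4A2, EEF2 and EIF4B, 4 of 8 genes. It was searched on the transcribed strand at the annotated start base alone. By gene, 987 of 15813 protein-coding genes with a window held it. By window, 4 of the 11 windows of the 8 genes held it (36.4%). Over all 35116 RefSeq windows the share was 4.07%, and over windows of protein-coding genes 4.55%. Of the 4 genes with an interval and a window, 2 had the run, as did 2 of the 4 without an interval. These genes are too few to show whether the run goes with an interval. No window was found for EEF1D or for PABPC1, which held an interval. The windows of EIF4G1 and EIF4G2, which have several annotated starts, did not hold the run. In EEF1G a shorter stretch, CTTT, begins 1 base after the annotated start.

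EIF4A2 held the tallest interval of the 10 genes. EIF4A2 encodes an isoform of eIF4A, the RNA helicase that unwinds the leader of mRNAs. Its interval of 34 tags lay at chromosome 3, 186784798 to 186784840 on the plus strand (hg38, as for all intervals), 1242 nt from the gene start. The expected height that the list gives for EIF4A2 was 1.27, so the interval was 26.8 times that value, with the lowest p-value the list prints (1e-100). Of the 1306 intervals in protein-coding genes, 30 were at least as tall. The interval lay wholly inside SNORD2, a C/D box snoRNA gene at 186784796 to 186784865, starting 2 nt after the snoRNA's first base and ending 25 nt before its last. EIF4A2 had no interval outside SNORD2, although 5 further small RNA genes lie in its span.

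EIF4A1 encodes the other eIF4A isoform and held intervals of 11 and 12 tags on the plus strand of chromosome 17. The first, at 7576811 to 7576854, began at the first base of SNORD10, a C/D box snoRNA gene of 148 nt that has the RefSeq synonym mgU6-77 and is known as a guide for methylation of the U6 spliceosomal RNA. The second, at 7577534 to 7577576, lay outside small RNA genes, 4730 nt from the gene start and 1451 nt before its end. A further interval inside EIF4A1, of 10 tags at 7577777 to 7577819, was listed under SENP3-EIF4A1 and CD68 and not under EIF4A1. The 3 intervals covered 1009 nt from first to last base, with gaps of 679 and 200 nt.

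The same EIF4A1 intervals carried different p-values under different listed genes. For the interval at SNORD10, the listed p-value was 0.0158 under EIF4A1, whose expected height was 0.78, and 1.56e-05 under SENP3-EIF4A1, a readthrough transcript of the upstream gene SENP3, whose expected height was 0.37. It was also listed under CD68, with an expected height of 0.57, although its midpoint lay outside the RefSeq span of CD68. The interval of 10 tags was the lowest of the 3 and the one absent under EIF4A1, which had the highest expected height of these genes; under CD68 its listed p-value was 0.0152 and under SENP3-EIF4A1 0.000424.

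EIF4G1 encodes the scaffold that joins the cap-binding protein, the eIF4A helicase and poly(A) binding protein. It held 2 intervals of 11 tags each on the plus strand of chromosome 3. One, at 184325707 to 184325749, lay wholly inside SNORD66, a C/D box snoRNA gene of 76 nt, from 11 nt after its first base to 22 nt before its last. The other, at 184328583 to 184328627, lay outside small RNA genes, 13999 nt from the start of the 20753 nt gene. Under EIF4G1, both had an expected height of 0.35, a ratio of 31.4 and a listed p-value of 1.35e-05. Both were also listed under EIF2B5, with an expected height of 0.03 and a listed p-value of 1e-100, although their midpoints lay outside its RefSeq span. A further interval of 6 tags inside EIF4G1, at 184324852 to 184324891, was listed under EIF2B5 alone. The 3 intervals covered 3776 nt.

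EEF1A1 encodes the factor that brings aminoacyl-tRNA to the ribosome, and it was the elongation factor gene with intervals among the 4 examined. Its intervals held 14 tags at chromosome 6, 73518839 to 73518881, and 10 tags at 73519226 to 73519283, both on the minus strand. They lay 2172 and 1778 nt from the start of the 5283 nt gene, with a gap of 344 nt between them. With an expected height of 0.48, the ratios were 29.2 and 20.8, and the listed p-values were 8.38e-09 and 0.00267. The interval of 58 nt at 10 tags was the widest of the 8, since the other 7 were 43 to 45 nt wide; the median width over all intervals of the list was 43 nt. No small RNA gene is annotated inside EEF1A1.

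PABPC1 encodes the main cytoplasmic poly(A) binding protein, which contacts eIF4G while bound to the mRNA tail. It held 1 interval of 11 tags at chromosome 8, 100717876 to 100717918 on the minus strand, 4191 nt from the start of the 19173 nt gene. Its expected height of 0.15 was the lowest of the 5 genes, so its ratio of 73.3 was the highest, with a listed p-value of 3.86e-09. The interval lay outside small RNA genes.

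**Figure D2:**
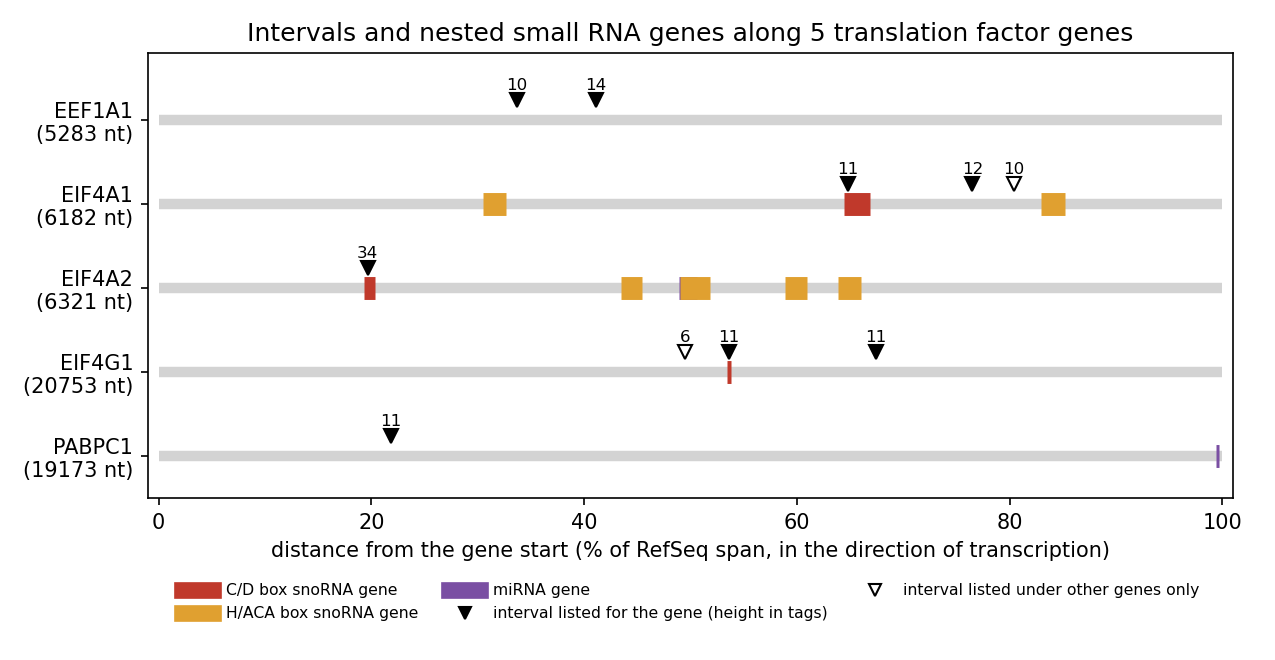
Place of each interval (triangles, with the height in tags) along the 5 genes that held one, in percent of the RefSeq span in the direction of transcription, with nested small RNA genes as coloured boxes. Filled triangles lie between 19.6% and 76.5% of the span, and those of 34 tags in EIF4A2 and of 11 tags in EIF4A1 and EIF4G1 sit on the C/D box snoRNA genes.

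Along the genes, the midpoints of the 8 intervals lay between 19.6% of the span, in EIF4A2, and 76.5%, in EIF4A1, with a median of 47.4%. The nearest to a gene start was that of EIF4A2 at SNORD2, and the nearest to a gene end was the second of EIF4A1. Exons and introns were not told apart, as the table used holds gene spans. The base sequence of the intervals was not analysed here.

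Of the 14 small RNA genes nested in the 10 genes, 3 held an interval, and all 3 were C/D box snoRNA genes. The 10 genes hold 5 C/D box genes. SNORD2, SNORD10 and SNORD66 held an interval, whereas SNORD37 in EEF2 and SNORD97 in EIF4G2 held 0. The 6 H/ACA box genes held 0 intervals: SNORA48 and SNORA67 in EIF4A1, and SNORA4, SNORA63, SNORA63B and SNORA81 in EIF4A2. The miRNA genes MIR1248 in EIF4A2, MIR6747 in EEF1G and MIR7705 in PABPC1 also held 0. Over all protein-coding genes, 1 of 1203 nested miRNA genes (0.0831%) held an interval. Of the nested C/D box genes of all protein-coding genes, 28 of 172 (16.3%) held an interval, as did 0 of 144 nested H/ACA box genes (0.0%). The lack of an interval at H/ACA box genes was thus not particular to the translation factor hosts.

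The intervals at SNORD2, SNORD10 and SNORD66 sat near the first base of the snoRNA, as did most others of the family. Their first bases were 2, 0 and 11 nt after the start of the snoRNA gene. Over all 36 C/D box genes with an interval, this distance had a median of 4.5 nt and ranged from -4 to 125 nt, and in 29 of them it was within 15 nt. The sizes limit it: SNORD2 has 70 nt and SNORD66 76 nt, which leaves an interval of 43 nt little room to start further along. SNORD10, with 148 nt, leaves more. The interval lay wholly inside the snoRNA gene in 34 of the 36. Their heights ranged from 6 to 50 tags with a median of 12, so SNORD2 with 34 tags was in the upper part of this range and SNORD10 and SNORD66 with 11 tags were near its middle. Tags from the free snoRNA and from the host intron that contains it cannot be told apart in these intervals.

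**Figure D3:**
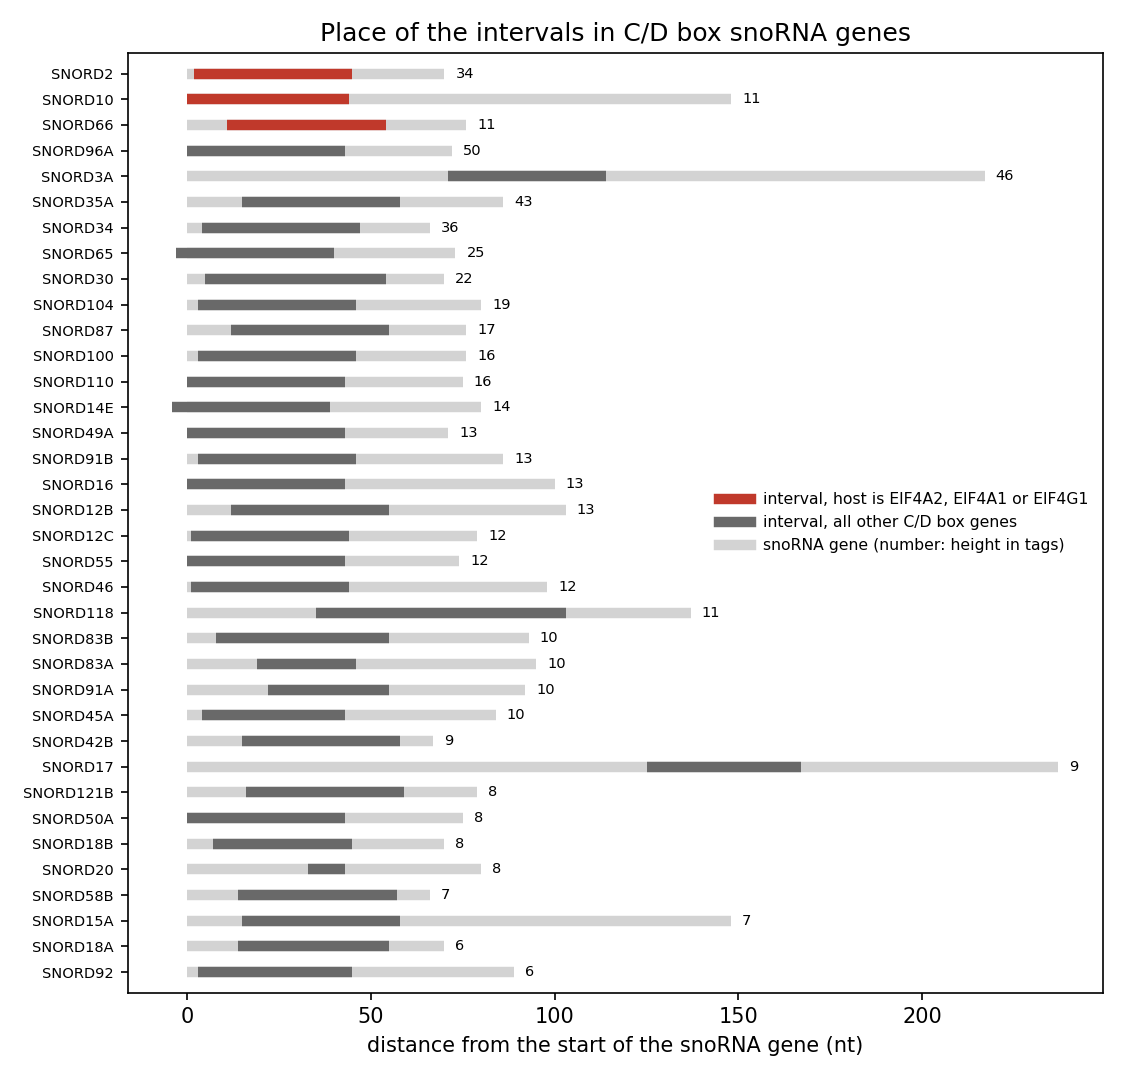
Place of the interval (dark or red) inside each of the 36 C/D box snoRNA genes (light grey) that held one, in nt from the start of the snoRNA gene, with the height in tags at the right. The 3 with a translation factor host, in red at the top, begin 2, 0 and 11 nt from the start, against a median of 4.5 nt over all 36.

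The heights in the 10 genes were above the middle of the list. Their median was 11 tags with a range of 10 to 34, against a median of 7 tags with quartiles of 6 and 10 over the 1306 intervals in protein-coding genes. Outside small RNA genes the median of the 5 remaining intervals was again 11 tags, against 7. All 8 intervals had at least 10 tags, as had 30.4% of those in protein-coding genes. An interval of 6 tags inside EIF4G1, listed under EIF2B5 alone, is not among the 8. The list also limits this comparison of heights, since its lowest heights rose with the expected height. At or above the expected height of EIF4A1, the lowest height in other protein-coding genes was 11 tags. Below the expected heights of all 5 genes it was 4. The expected heights that the list gives were also high. The median over the 5 genes was 0.48, against 0.04 over 1012 protein-coding genes with an interval and an expected height above 0. EIF4A2 was within the top 1.09% of these genes by expected height, EIF4A1 within the top 2.47%, EEF1A1 within 4.45%, EIF4G1 within 6.42% and PABPC1 within 15.6%.

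Relative to the expected height, the order was turned round. The median ratio of height to expected height was 28.0 in the 8 intervals, with a range of 14.1 to 73.3, against 167 over protein-coding genes. The value of 167 covers the 1268 gene and interval pairs with an expected height above 0. The list itself limits this comparison, since low peaks were absent where the expected height was high. Among other protein-coding genes with an expected height at least that of EIF4A2, the lowest listed height was 13 tags and the median 23.5 (24 gene and interval pairs). At or above the expected height of EIF4A1 the lowest was 11 and the median 17, and at or above that of EEF1A1 they were 9 and 16. For EIF4G1 they were 9 and 14, and for PABPC1 7 and 12. Below the expected heights of all 5 genes, the lowest was 4 tags and the median 7. Set against genes of at least the same expected height, EIF4A2, with its interval at SNORD2, lay above the median. The intervals of EEF1A1, EIF4A1, EIF4G1 and PABPC1 lay below it. Each gene stood at the lower edge of its set by expected height, and the listed heights rose with the expected height. A place below the median is therefore partly set by how the sets were drawn. How the expected height was computed is not given in the sources used here.

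**Figure D4:**
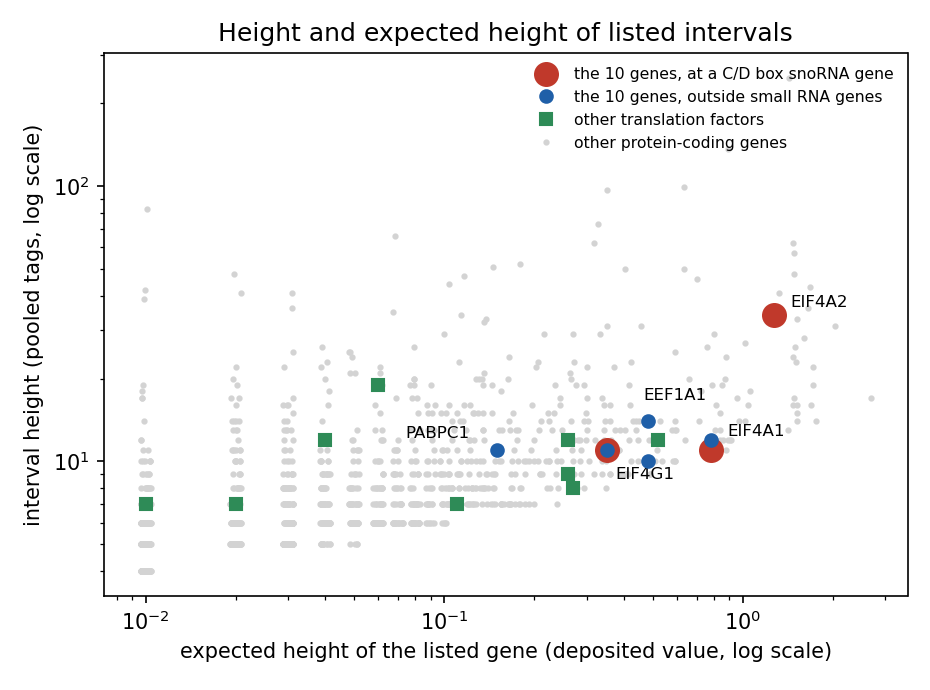
Height against the deposited expected height of the listed gene (both log scales) for intervals in protein-coding genes, with the 8 intervals of the 10 translation factor genes as circles (those of 11 tags in EIF4G1 coincide) and the other translation factors as squares. The lower edge of the cloud rises with the expected height; EIF4A2 lies at 1.27 and 34 tags, and PABPC1 furthest left of the circles at 0.15 and 11 tags.

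Several of these genes have copies elsewhere in the genome. By symbol, and with chromosome Y left out, RefSeq lists 49 pseudogenes of EEF1A1, 12 each of EIF4A1 and PABPC1, 9 of EIF4B, 8 each of EEF1D and EEF1G and 5 of EIF4A2. EEF2, EIF4G1 and EIF4G2 have 0 by this naming. None of these 103 pseudogenes held an interval. The share of all RefSeq pseudogenes with an interval was not computed, so this count cannot be read as particular to these copies. The file name says that unique tags were kept, but how tags that match several places were treated is not given in the sources used here, and the heights of genes with such copies may depend on it.

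Among 71 other translation factor genes, 8 held an interval (11.3%), against 5.29% of all protein-coding genes. The exact Clopper-Pearson 95% confidence interval was 4.99 to 21.0, which covers counting error only and treats genes as independent. This list was also chosen with earlier results of these data in view, so it is not a random sample of genes. The confidence interval therefore cannot decide whether the shares differ, and the gap between them is a description. The 8 genes held 9 intervals, of 7 to 19 tags with a median of 9, and none lay at a small RNA gene. Of 13 genes of start codon selection and the ternary complex, EIF1, which guards start codon choice, held 12 tags, and EIF5, which triggers GTP hydrolysis by eIF2, held 8 tags. Of 14 genes of the eIF3 complex, EIF3D held 7 tags. Of 8 further genes of cap binding, EIF4E, the cap-binding protein gene, and EIF4G3, a relative of EIF4G1, held 7 tags each. Of 4 genes of termination and recycling, ETF1, which encodes the release factor that reads stop codons, held 12 tags. The other elongation genes (8), the eIF2B subunit genes (5), the eIF2 kinase genes (4), the mitochondrial factor genes (8) and EIF6 held 0 intervals inside their spans.

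The poly(A) binding protein genes carried intervals in 3 relatives. PABPC1L held the tallest of the 9, 19 tags at chromosome 20, 44932987 to 44933051 on the plus strand, with an expected height of 0.06. PABPC4 held 9 tags at chromosome 1, 39564250 to 39564305, and 12 tags at 39566587 to 39566628, both on the minus strand, with an expected height of 0.26. PABPC1, with 11 tags, lay between them in expected height (0.15). The intervals lay late in PABPC4 (63.7% and 78.3% of the span) and in PABPC1L (78.5%), but early in PABPC1 (21.9%). PABPC3, PAIP1, PAIP2 and PAIP2B held 0 intervals.

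In the eIF4G family the intervals of EIF4G1 had 11 tags at an expected height of 0.35, and that of EIF4G3 had 7 tags at 0.01, a ratio of 700. At a listed value as small as 0.01, the ratio depends strongly on rounding. EIF4G2 held 0. In the eIF4A family, EIF4A1 and EIF4A2 had the highest expected heights of all translation factor genes with an interval. In the eEF1 family, EEF1A1 held intervals, whereas EEF1A2, EEF1B2, EEF1D, EEF1E1 and EEF1G held 0.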

How the data were processed

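Tags of 2 SF3B1 HITS-CLIP libraries were pooled by the authors into 1 list of significant peaks from unique tags, per the file name (whether unique means mapped once or collapsed duplicates is not stated). The deposited peak height is a signal in pooled tags with no normalization; the text field adds a gene number, an expected height and a p-value, which are the authors' own values. The submitters' processing notes name the hg38 build, BWA 0.7.17 and cutadapt 2.3; the peak caller and annotation are not given in the sources used here. Depth per library is unknown.

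The 1587 rows held 1406 distinct intervals by chromosome, start, end and strand. Of 1191 gene numbers, 1190 matched RefSeq (GRCh38.p14, chromosome Y left out). A listed gene kept an interval if its span held the midpoint. Small RNA genes were at most 500 nt. All results are descriptions without a test. Members, gene lists and the genes named (all members, other translation factors with an interval, and nested genes) were chosen with earlier results of these data known. Relatives with 0 intervals were named after their values were seen. Alternatives were any overlap, gene numbers as listed, merging within 50 nt, a p-value of at most 0.01, heights above the median, 1 interval per gene, and leaving out small RNA genes. Assignment was tested on simulated data. Computations used pandas 2.3.3 and numpy 2.4.6 under Python 3.11.15, with intervals from scipy 1.17.1 and figures from matplotlib 3.10.9.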

Additional observations from a re-analysis of the deposited data

Results flagged for a closer look

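Intervals inside a translation factor gene, on its strand, were found that the list gives under other genes, so they are outside the counts above. The first held 10 tags inside EIF4A1 at chromosome 17, 7577777 to 7577819, and was listed under SENP3-EIF4A1 (expected height 0.37) and CD68 (0.57). The second held 6 tags inside EIF4G1 at chromosome 3, 184324852 to 184324891, and was listed under EIF2B5 (expected height 0.03). Both are above 3 tags, the limit compatible with a count of 0, as are nearly all called peaks, whose lowest height is 3 tags; this height does not set them apart. With them, the spans of the 10 genes held 10 intervals.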

How the results depend on the processing

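Of 20 alternatives over 6 results, 18 stayed within 1.5 times the value reported. Some of the 18 could not move. Intervals within 1 of the 10 genes were 200 nt or more apart, so merging within 50 nt could not join them. The lowest of the 8 had 10 tags, so a cut at the median height of 7 could not remove any. Without intervals at small RNA genes, 5 of the 8 intervals remained and EIF4A2 had none, leaving 4 genes. Among intervals above the median height of the list, 5 of the 8 other translation factor genes kept an interval. At a p-value of at most 0.01, 7 of the 8 intervals remained, as that of EIF4A1 at SNORD10 was left out. Any overlap, gene numbers as listed and merging within 50 nt gave 8 intervals each. No paired analysis was possible because the replicates were pooled before peaks were called. Leaving out a replicate could not be run for the same reason.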

Other observations

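EIF2B5, the gene of the catalytic subunit of the eIF2B exchange factor, was listed for 6 intervals, and all 6 lay outside its RefSeq span (chromosome 3, 184135358 to 184145311). They held 6 to 11 tags between positions 184183466 and 184364941, and 3 of the 6 lay inside EIF4G1. Of the 58 other translation factor genes with a RefSeq start window, 8 held the C-led pyrimidine run at the annotated start base. Among all 15813 protein-coding genes with a window, 987 held it. By window, the shares were 10.5% (8 of 76) and 4.55% (1007 of 22156).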
